A study of Mus musculus with 98 samples.

Results

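Cultured mouse hippocampal neurons that carried a control virus were compared 14 days after a tau preparation or buffer was added, in 3 libraries against 3. These 6 libraries are all the samples whose titles give the vector virus, 21 days in vitro and either hAD-tau or PBS without stimulation, out of 98 samples in the series. The neurons were primary embryonic hippocampal cells of CD1 mice. They received PhP.eB virus with the vector alone on day 5, were washed with PBS on day 7 and were then given the material the labels call hAD-tau, or PBS. Every group used below had the same medium with B27 supplement, and all but the no-virus cultures had a PhP.eB virus. The labels do not say whether the libraries come from separate cultures, so the p-values below measure the spread between these samples, which may be technical. The treatment entry for the vector and tau libraries reads vector and PBS, which contradicts their titles, and the groups follow the titles and the matching column names. No transcript in a mouse count table can check which cultures received tau protein.

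Tau is a microtubule-binding protein of axons that aggregates in Alzheimer's disease, and aggregated tau added to cultured neurons can enter them and seed aggregation of the cells' own tau. Hippocampal cultures hold excitatory neurons, a smaller share of inhibitory interneurons, and glia that survive dissection and multiply with time. Each neuron depends on glucose metabolism for synaptic work, and on chromatin proteins such as histones to package its genome. In bulk RNA, fewer cells of a type and less RNA per cell cannot be told apart.

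Total counts in the 6 libraries ran from 17386121 to 31199403. The libraries fell into no clean order by treatment. Library PBS 3 stood apart, at 56.69 on the first principal component of the 12 libraries of day 21 (30.5% of variance), where the next highest library of the 6 was at 21.14. Its summed astrocyte markers reached 22730 CPM (counts scaled by the TMM-adjusted library size), against 4212 to 6531 in the tau libraries and 5236 and 9062 in PBS 2 and PBS 1. Libraries tau 2 and PBS 2 held 4.1% and 11% of their counts in the ribosomal RNA gene Rn45s, against 0.418% to 0.887% in the other 4. Summed neuronal markers were 5085 to 7522 CPM with tau and 4735 to 7366 with PBS, so neurons were present in all 6. Acss2, the enzyme that makes acetyl-CoA from acetate and the gene carried by the other virus of the series, was at 57.8, 47.0 and 59.3 CPM with tau and at 59.6, 46.6 and 50.2 with PBS. It stood at 2275 to 4656 in the 6 upACSS2 libraries of the same day.

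After 14 days of tau, no gene passed the test. Of 14639 genes tested, 0 (0%) reached an adjusted p of 0.05 in edgeR's quasi-likelihood test with Benjamini-Hochberg adjustment, where the lowest adjusted p was 0.53. At an unadjusted p of 0.05 edgeR listed 1361 genes (9.3%), of which 596 (4.07%) were higher and 765 (5.23%) lower with tau. DESeq2 called 3 genes, and edgeR called 29 when the 12 libraries of day 9 joined the fit and shared its estimate of spread. The tau and PBS libraries did not overlap in CPM for 1417 genes (9.68%), of which 718 were higher (4.9%) and 699 lower (4.77%). Higher and lower genes were balanced, with 48% above 0 and a median log2 fold change of -0.01. The unadjusted count depended on single libraries, falling to 315 without tau 1 and to 627 without PBS 3, and reaching 2879 without tau 2, 2677 without PBS 1 and 1899 without PBS 2. The values below are therefore a description of how the named genes and groups lay in the 6 libraries.

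Among genes with non-overlapping groups, 578 higher and 478 lower genes met the level required for naming, and the 12 with the lowest unadjusted p in each direction are described. Their adjusted p in edgeR was 0.53 in every case in the fit of the 12 libraries of day 21. Of the 29 genes that edgeR called with all 24 unstimulated libraries, 18 are among those named here. The highest ranked of the higher genes was Pdlim1, which encodes a PDZ and LIM domain protein of the actin cytoskeleton. It was at 6.67, 2.85 and 5.98 CPM with tau and at 1.28, 0.964 and 1.41 with PBS. Every tau library exceeded every PBS library, and the log2 fold change was 2.08 ± 0.39 (SE, n = 3 per group; edgeR, unadjusted p = 0.000202). Leaving out single libraries kept it between 1.85 and 2.37. Pdlim1 was also 1 of the 3 genes called by DESeq2 (adjusted p = 0.00285).

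The higher genes also included membrane transport proteins and enzymes. Lrrc8d, a subunit of the volume-regulated anion channel, was at 93.9, 87.9 and 84.0 CPM with tau and at 57.9, 64.8 and 52.4 with PBS. Its groups were well separated (log2 fold change 0.60 ± 0.14; edgeR, unadjusted p = 0.00124). Slc7a8, a neutral amino acid transporter, was at 107.4, 64.0 and 83.9 CPM with tau and at 56.5, 44.8 and 43.0 with PBS, a log2 fold change of 0.83. Coq8a, which is needed to make coenzyme Q for the respiratory chain, stood at 64.9, 45.4 and 47.1 CPM against 25.8, 29.6 and 23.8 with PBS. The lowest tau library was above the highest PBS library by more than the range of the PBS group. Reads of Coq8a may be shared with Cdc42bpa, which overlaps it, because the strand setting of the counting is not given in the sources used here. Aldh1b1, a mitochondrial aldehyde dehydrogenase, and Fam210b, a mitochondrial membrane protein, had log2 fold changes of 0.58 and 0.45. Cyb561, which carries electrons across secretory vesicle membranes, was at 44.6, 26.2 and 30.8 CPM against 17.2, 20.4 and 16.98, with tau 1 far above its companions.

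Among the remaining higher genes were 2 that encode secreted proteins. Cbln1, a secreted protein that organises synapses by binding neurexins, was at 8.41, 8.43 and 4.92 CPM with tau and at 3.44, 3.01 and 3.21 with PBS. The log2 fold change was 1.17 ± 0.29 (edgeR, unadjusted p = 0.00161). Fbln2, an extracellular matrix glycoprotein, was at 4.19, 2.79 and 2.90 CPM with tau and at 1.80, 1.57 and 1.65 with PBS, a log2 fold change of 0.98. The other 3 were the zinc finger gene Zfr2 at 0.73, Tmem145 at 0.66 and the trichohyalin gene Tchh at 0.74.

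The lower side was led by Kitl, which encodes the ligand of the KIT receptor. Kitl was at 9.92, 10.5 and 10.8 CPM with tau and at 17.4, 17.4 and 23.4 with PBS. Its tau libraries spanned a narrow range that lay wholly below the PBS libraries, and the log2 fold change of -0.90 ± 0.14 had the lowest unadjusted p of all genes in edgeR (3.87e-05). Without single libraries it ran from -0.98 to -0.74. DESeq2 gave Kitl an adjusted p of 0.000227. Fam13b was at 19.3, 32.3 and 31.5 CPM with tau and at 62.2, 49.9 and 59.8 with PBS, a log2 fold change of -1.05. Lmcd1, a LIM domain cofactor of transcription, was at 2.75, 3.07 and 3.45 CPM against 7.70, 5.78 and 11.3, a log2 fold change of -1.42. The PBS libraries of both genes lay above all tau libraries.

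Of the 12 lower genes, H2bc6 and H2bc4 encode histone H2B and are described with the other histones. Neto2, an auxiliary subunit of kainate receptors, was at 43.7, 51.3 and 48.4 CPM with tau and at 63.4, 62.2 and 65.2 with PBS. Both groups of Neto2 were tight, and the log2 fold change was -0.41 ± 0.10 (edgeR, unadjusted p = 0.00127). Tmem38b, a potassium channel of the endoplasmic reticulum, was at 10.8, 13.8 and 11.2 CPM against 17.4, 17.5 and 20.1 with PBS. Rlbp1, a retinaldehyde-binding protein, had a log2 fold change of -0.69, and Dpp7, a peptidase of intracellular vesicles, one of -0.65. The remaining 3 were Gpn2 at -0.61, Spa17 at -1.03 and Phtf1 at -0.37. Of the 26 genes positioned here, including Acss2 and Mapt, 12 overlap another RefSeq gene, so their counts may hold reads of a neighbour.

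**Figure D1:**
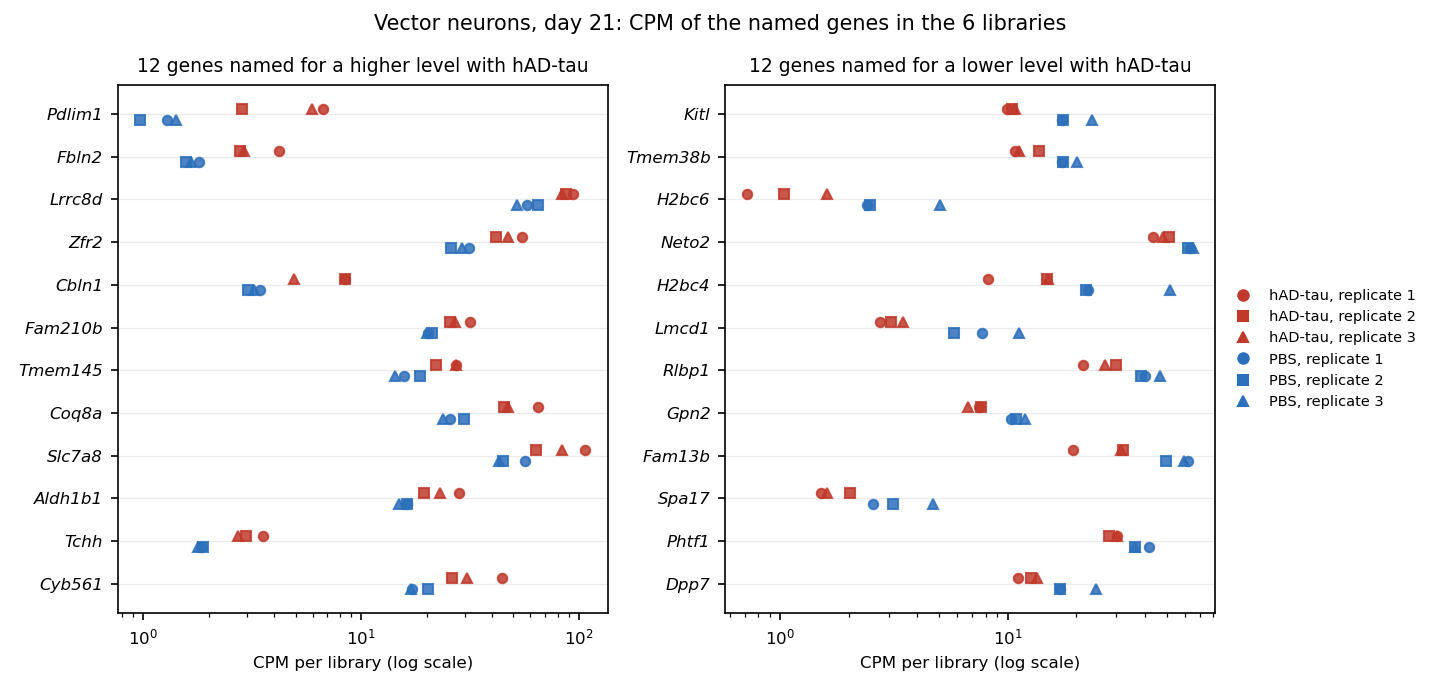
CPM of the 24 named genes in each of the 6 vector libraries of day 21, on a log axis, with hAD-tau in red, PBS in blue and the marker shape giving the replicate. Red and blue points of a gene do not overlap, which is part of how the genes were chosen, and Kitl with tau lies between 9.92 and 10.8 CPM.

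Histone genes had the median farthest from 0 of the 33 gene lists, taken over the tested members only. The lists were chosen with earlier results of these data known. Replication-dependent histones package newly copied DNA and are normally made during DNA synthesis, and most of their mRNAs end in a stem loop in place of a poly(A) tail. The NEB kit named in the labels isolates poly(A) mRNA, and what share of these transcripts it captured was not measured. Of 14 histone genes in the list, all on chromosome 13, 6 passed the filter on low counts and 8 did not. The promoters of 4 of the 6 are shown because these genes had lower values together. Each is the 200 bases before the annotated start in RefSeq's GRCm38.p6, read 5′ to 3′ on the gene's strand. Capitals mark the CCAAT box (searched as CCAAT), the TATA box (searched as TATAAA) and the histone octamer (searched as ATTTGCAT), each on both strands. H1f2 lies on the plus strand (chr13:23738607-23738806), H1f4 on the minus strand (chr13:23622559-23622758), and H2bc8 (chr13:23571200-23571399) and H4c8 (chr13:23530844-23531043) on the plus strand.
H1f2: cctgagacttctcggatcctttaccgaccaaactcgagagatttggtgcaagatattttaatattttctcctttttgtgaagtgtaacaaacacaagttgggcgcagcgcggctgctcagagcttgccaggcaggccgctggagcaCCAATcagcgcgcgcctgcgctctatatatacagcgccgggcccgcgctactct
H1f4: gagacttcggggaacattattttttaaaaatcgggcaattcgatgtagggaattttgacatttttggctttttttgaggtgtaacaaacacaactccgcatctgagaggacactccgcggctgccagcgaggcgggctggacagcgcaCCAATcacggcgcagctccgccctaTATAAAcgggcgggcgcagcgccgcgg
H2bc8: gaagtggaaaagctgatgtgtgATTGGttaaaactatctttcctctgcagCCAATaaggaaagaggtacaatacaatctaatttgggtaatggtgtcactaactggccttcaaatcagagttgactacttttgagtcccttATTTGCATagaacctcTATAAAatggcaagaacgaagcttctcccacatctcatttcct
H4c8: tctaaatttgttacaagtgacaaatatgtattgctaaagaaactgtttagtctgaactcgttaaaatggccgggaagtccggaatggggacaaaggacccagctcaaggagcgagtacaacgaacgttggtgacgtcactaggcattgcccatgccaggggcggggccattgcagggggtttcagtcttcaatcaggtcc
CCAAT was found 54 bases before the start of H1f2, 52 before that of H1f4, and in H2bc8 150 before on the forward strand and 178 before on the reverse strand. TATAAA was found 27 bases before the start of H1f4 and 43 before that of H2bc8, and the octamer 59 before that of H2bc8. Only exact letters were searched, so similar stretches, such as tatatata in the H1f2 window, are not marked. None of the 3 is in the H4c8 window. Over 32851 RefSeq promoter windows of 200 bases, 29.3% hold the first motif, 9.96% the second and 1.38% the octamer on either strand, so such matches only describe the letters.

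H1f2, which encodes a linker histone, was at 12.4, 20.1 and 27.3 CPM with tau and at 51.5, 28.0 and 88.4 with PBS. The tau libraries all lay below the PBS libraries, but by a narrow gap between tau 3 and PBS 2, and the log2 fold change was -1.49 ± 0.43 (edgeR, unadjusted p = 0.0047). H2bc4 was at 8.22, 14.9 and 15.04 CPM with tau and at 22.5, 22.1 and 52.0 with PBS, a log2 fold change of -1.35 that became -0.81 without PBS 3. H2bc6 was at 0.716, 1.04 and 1.61 CPM against 2.41, 2.49 and 5.02, a log2 fold change of -1.58 that became -1.13 without PBS 3. PBS 3 was the highest library for these genes, and the difference remained without it.

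The other 3 that passed were rare transcripts. H1f4, a further linker histone, was at 0.0377, 0.383 and 0.184 CPM with tau and at 0.872, 1.65 and 1.74 with PBS, from 246 counts over the 12 libraries. Its log2 fold change was -2.91 ± 0.56 (edgeR, unadjusted p = 0.000223), and DESeq2 called it with an adjusted p of 0.0107. H2bc8 was at 0.0377, 0.110 and 0.0920 CPM with tau and at 0.359, 0.321 and 0.826 with PBS. H4c8 was at 0.226, 0 and 0.0920 CPM with tau and at 0.565, 0.321 and 1.65 with PBS, where the 0 in tau 2 allows up to 0.164 CPM at 3 counts. All 6 tested genes had non-overlapping groups, where the background for lower genes is 4.77%. A histone gene could pass the filter through its PBS or upACSS2 libraries alone, so this count describes the genes that were tested and is no support of its own.

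Summed over all 14 genes, filtered or not, histone levels were 21.7, 36.7 and 44.6 CPM with tau and 78.5, 55.4 and 151 with PBS. The sums do not overlap, and they consist mostly of H1f2 and H2bc4. The median log2 fold change of the 6 was -2.13 against -0.01 over all genes, and -1.48 without PBS 3. With the 2 groups alone in the fit, 4 of the genes were tested and the median was -1.53. Because the filter could admit a gene through PBS or upACSS2 libraries alone, these medians describe the tested genes and are no support of their own. Each of the 8 genes below the filter was at 0.49 CPM or less in all 6 libraries. The list does not cover the family, and a further 39 histone gene symbols with counts were looked up after the values of the first were seen. Of these, 6 passed the filter and all 6 were lower with tau, where 52% of all genes were. H1f3 was at 0.0754, 0.110 and 0.138 CPM against 0.667, 0.723 and 0.887. These genes too could pass the filter through PBS or upACSS2 libraries alone, so their count is no support of its own. Among these 6, H2bc21 and H2bc1 had overlapping groups. The list of dividing-cell markers, which share the cell cycle with these histones, had a median of -0.13, with 0 of 8 genes higher and no gene with non-overlapping groups, and became 0.06 without PBS 3.

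**Figure D2:**
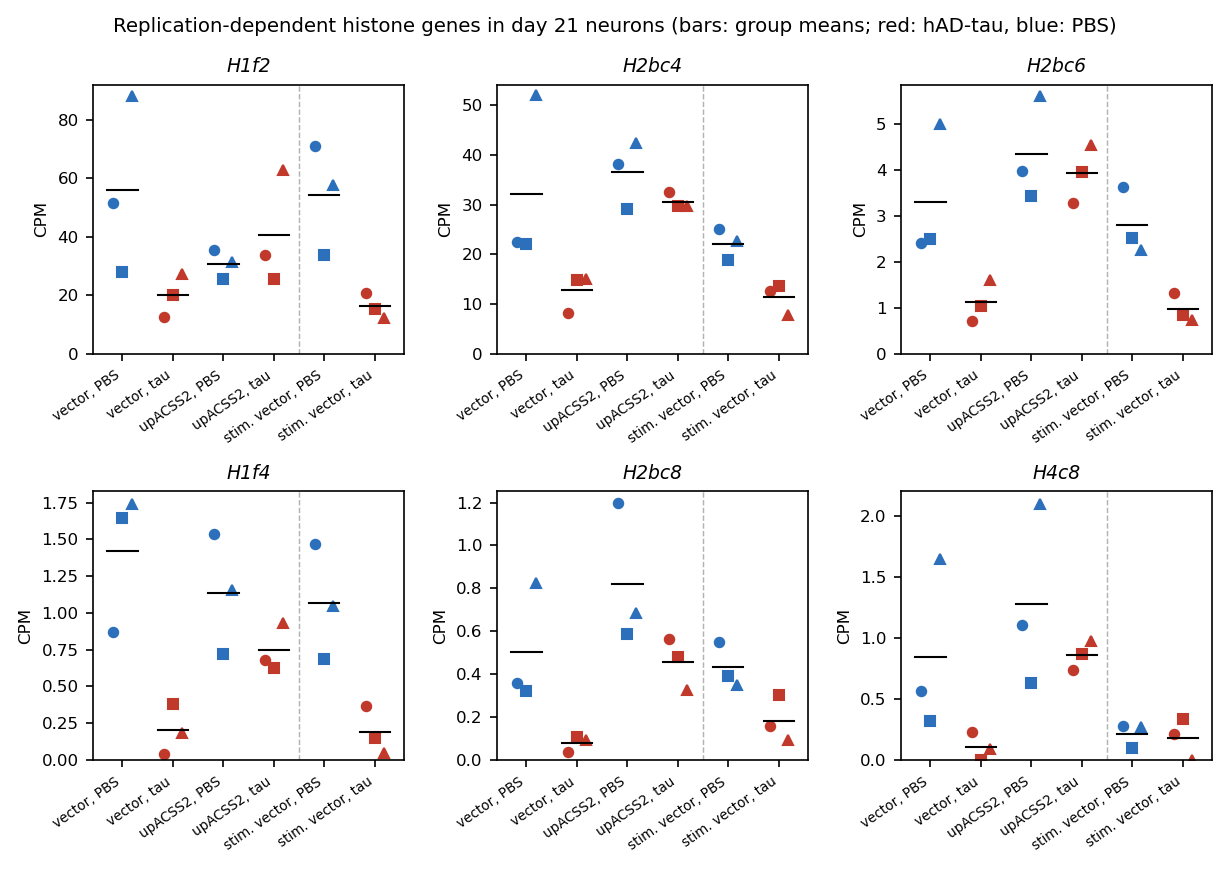
CPM of the 6 tested histone genes on linear axes from 0, with 1 point per library and a bar at the mean of each group of 3, for vector, upACSS2 and, right of the dashed line, stimulated vector neurons of day 21. In unstimulated vector neurons all tau points (red) lie below the PBS points (blue) for the 6 genes. In upACSS2 neurons the 2 overlap for H1f2, H2bc4 and H2bc6.

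Genes of glucose use and of the response to low oxygen were mostly higher with tau. Glycolysis turns glucose into pyruvate and lactate, and many of its genes are targets of hypoxia-inducible factors. All 20 listed genes had a log2 fold change above 0, where 48% of all genes did, and the median was 0.59. Of the 20, Hk2 and Egln3 had non-overlapping groups, where 4.9% of all genes were higher without overlap. Hk2 encodes hexokinase, which traps glucose in the cell, and it was at 32.2, 4.49 and 24.1 CPM with tau and at 4.26, 1.49 and 2.66 with PBS. Library tau 2 was barely above PBS 1, and the log2 fold change was 2.88 ± 0.88 (edgeR, unadjusted p = 0.00677). Egln3, an oxygen-sensing prolyl hydroxylase, was at 25.3, 12.7 and 24.3 CPM with tau and at 9.65, 9.56 and 9.12 with PBS, a log2 fold change of 1.14 ± 0.33 (edgeR, unadjusted p = 0.00455). The PBS libraries of Egln3 were nearly equal, and all tau libraries lay above them. Their promoters are shown because a short core of the hypoxia response element, ACGTG, is known. Each is the 200 bases before the RefSeq start in GRCm38.p6, on the minus strand, for Hk2 at chr6:82774455-82774654 and for Egln3 at chr12:54203875-54204074. Capitals mark ACGTG on either strand.
Hk2: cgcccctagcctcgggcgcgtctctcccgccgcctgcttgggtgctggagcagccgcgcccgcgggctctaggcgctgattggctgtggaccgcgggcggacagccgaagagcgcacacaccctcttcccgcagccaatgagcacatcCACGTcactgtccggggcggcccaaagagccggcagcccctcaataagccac
Egln3: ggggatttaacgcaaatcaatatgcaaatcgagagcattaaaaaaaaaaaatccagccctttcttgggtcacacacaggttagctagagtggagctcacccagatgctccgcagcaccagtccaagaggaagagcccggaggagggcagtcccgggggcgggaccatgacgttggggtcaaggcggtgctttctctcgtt
The Hk2 window holds the motif on the reverse strand, 52 bases before the start, and the Egln3 window does not hold it. Of all 32851 windows, 14% hold it on either strand.

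The other glycolytic genes overlapped between groups, because tau 2 was low and PBS 1 was high. Ldha, which makes lactate, was at 916, 414 and 720 CPM with tau and at 574, 384 and 293 with PBS. Slc16a3, a lactate exporter, was at 18.3, 1.86 and 14.9 CPM against 3.95, 0.362 and 0.704. Tau 2 fell between PBS 1 and the other 2 PBS libraries for Slc16a3. The summed level of the list was 8162, 4674 and 7174 CPM with tau and 6677, 4341 and 4331 with PBS. Libraries tau 2, PBS 2 and PBS 3 were the 3 lowest in this sum, and also in the summed presynaptic genes. Leaving out single libraries gave list medians from 0.28 (without tau 1, 19 of 20 genes above 0) to 0.85 (without PBS 1, 20 of 20). Without PBS 2 the median was 0.47 with 18 of 20 above 0, and without PBS 3 it was 0.50 with 20 of 20.

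Cholesterol synthesis genes, which supply the sterol of neuronal membranes, had 14 of 19 values above 0 and a median of 0.29. Hmgcs1, an early enzyme of the pathway, was at 1303, 795 and 943 CPM with tau and at 775, 582 and 672 with PBS. Mvd, which acts later, was at 56.9, 35.4 and 35.7 CPM against 31.9, 24.1 and 24.3. These were the 2 genes of the list with non-overlapping groups, with log2 fold changes of 0.58 and 0.68, where 4.9% of all genes were higher without overlap. The list median was 0.10 without tau 1 or without PBS 2, 0.45 without tau 2 and 0.50 without PBS 1. Fatty acid oxidation and PPAR target genes lay the other way, with 0 of 16 above 0 and a median of -0.51, which was -0.04 without PBS 3. Fabp7, a fatty acid-binding protein of glia and progenitors, was at 179, 516 and 219 CPM with tau and at 475, 775 and 601 with PBS, with tau 2 inside the PBS range.

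**Figure D3:**
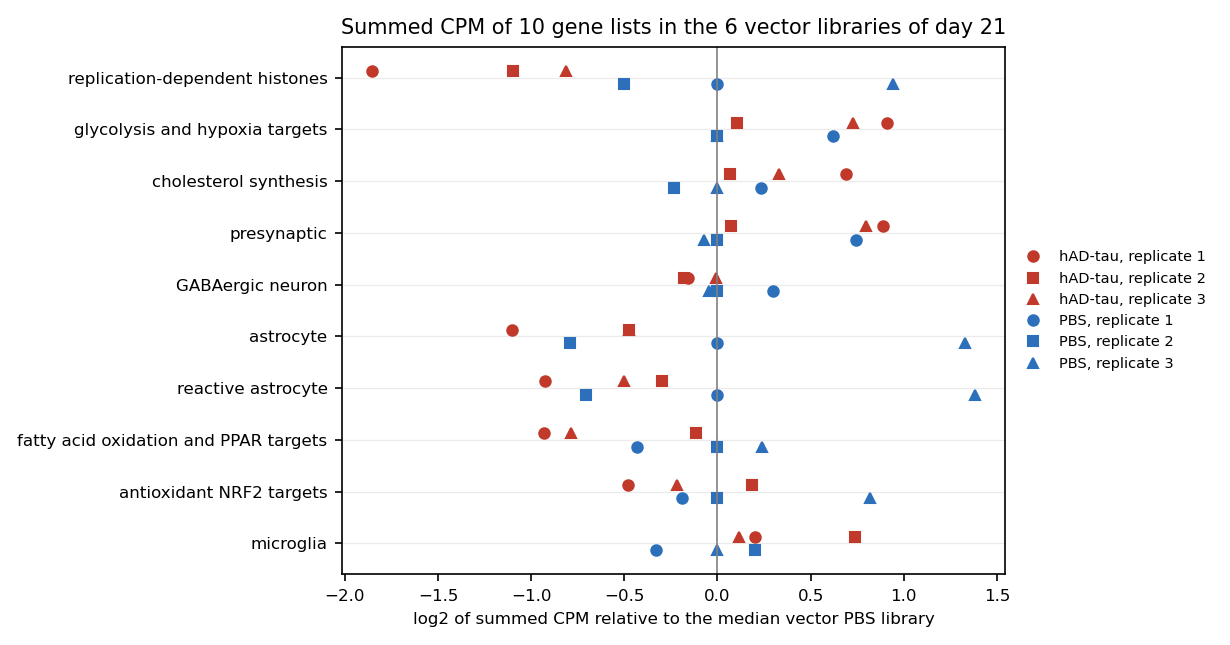
Summed CPM of 10 gene lists in the 6 vector libraries of day 21, as log2 relative to the median PBS library of the same list, with 1 point per library. The histone sums of the tau libraries (21.7 to 44.6 CPM) lie left of all PBS sums, and PBS 3 is far right for the astrocyte lists.

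Synaptic genes were slightly higher with tau on average, with overlapping groups. All 16 presynaptic genes, which build and release neurotransmitter vesicles, had log2 fold changes above 0 with a median of 0.35, and none had non-overlapping groups. Their sums were 14690, 8374 and 13830 CPM with tau and 13310, 7950 and 7571 with PBS. Syn2, a vesicle-tethering synapsin, was at 1128, 709 and 1015 CPM with tau and at 754, 648 and 539 with PBS. Tau 2 fell below PBS 1 for Syn2. Of 14 postsynaptic genes 13 were above 0 with a median of 0.27. Without PBS 1 the presynaptic and postsynaptic medians were 0.68 and 0.53, and the lowest medians were 0.19 without tau 1 and 0.13 without PBS 3, with all 16 presynaptic genes above 0 in each of these fits. Ionotropic glutamate receptor genes (median 0.05) and GABA-A receptor genes (0.07) lay near 0.

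Excitatory and inhibitory neuron markers had medians of opposite sign. The median was 0.28 for 8 glutamatergic markers, of which 6 were above 0, and -0.21 for 10 GABAergic markers, of which 1 was above 0. In each list 1 marker was lower without overlap and 0 were higher, where 4.77% and 4.9% of all genes were. Prox1, listed as a glutamatergic marker, lay the other way at -0.46, and ran from -0.75 to -0.29 with 1 library left out. Slc17a7, the vesicular glutamate transporter, was at 2182, 1039 and 2059 CPM with tau and at 1955, 999 and 845 with PBS. Sst, the interneuron peptide somatostatin, was at 130.2, 165 and 121 CPM with tau and at 177, 162 and 208 with PBS. The groups overlapped for both genes. Both medians moved with single libraries, the glutamatergic one from 0.16 without PBS 3 to 0.51 without PBS 1, and the GABAergic one from -0.29 without tau 3 to -0.08 without PBS 1, where 3 of 10 markers were above 0.

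Genes for tau itself and for its handling showed little difference. Mapt, the endogenous tau gene, was at 525, 468 and 482 CPM with tau and at 490, 418 and 423 with PBS, a log2 fold change of 0.15 ± 0.11 (edgeR, adjusted p = 0.612). The medians were 0.07 for 14 genes of tau and microtubule proteins and 0.01 for 15 genes of tau uptake. Of 17 tau kinase and phosphatase genes 15 were above 0, with a median of 0.11 and no non-overlapping groups. Protein quality lists lay close to all genes, with medians of -0.09 for lysosome and autophagy, 0.11 for the unfolded protein and integrated stress response and 0.02 for cytosolic chaperones. Immediate early genes, which mark recent neuronal activity, had a median of 0.05, with 11 of 18 above 0. That value moved to -0.26 with 2 of 18 above 0 without tau 3, to 0.27 with 15 of 18 without tau 2, and to 0.25 with 15 of 18 without PBS 1. The list that includes Acss2 joins acetyl-CoA enzymes and acetyltransferases with histone deacetylases, which act the opposite way, and had a median of 0.07. Of its 15 genes 2 were higher and 2 lower without overlap, where 4.9% and 4.77% of all genes were.

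Astrocyte, antioxidant, interferon, NF-kB, actin and choroid plexus lists were lower with tau, and these values rested on PBS 3. All 12 astrocyte markers were lower, with a median of -0.76 that became -0.06 without PBS 3. Gfap, the astrocyte filament protein, was at 1411, 2899 and 2863 CPM with tau and at 4969, 2249 and 14380 with PBS. PBS 2 lay inside the tau range, and the log2 fold change of -1.59 became -0.59 without PBS 3. Reactive astrocyte genes had 2 of 23 above 0 and a median of -0.75, which became -0.10 without PBS 3. NRF2 antioxidant targets (-0.44 with 0 of 12 above 0), interferon-stimulated genes (-0.59 with 2 of 11) and actin, SRF and YAP targets (-0.43 with 2 of 13) became -0.12, -0.12 and -0.04 without it. NF-kB targets went from -0.31 to -0.05, and choroid plexus and ependymal markers from -1.24 to -0.29. PBS 3 is the library with the highest astrocyte sum.

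Microglial markers were higher, at low levels. Of 12 genes 10 were tested and 9 of these were above 0, with a median of 1.01 that became -1.59 without tau 2. Cx3cr1, a microglial chemokine receptor, was at 0, 2.08 and 0.0460 CPM with tau and at 0, 0.562 and 0.122 with PBS, and its 0 values allow up to 0.113 in tau 1 and 0.154 in PBS 1. Tau 2 was the library with most of it. Cd68, a lysosomal protein of macrophages and other cells, was at 8.86, 6.24 and 6.62 CPM with tau and at 2.52, 5.34 and 2.91 with PBS, so it was higher in all tau libraries. Oligodendrocyte lineage markers had a median of -0.05, p53 targets and apoptosis genes -0.11, axon injury and growth genes 0.01, endothelial and mural markers -0.31, and fibroblast and meningeal markers 0.15. With 1 library left out the oligodendrocyte median ran from -0.43 (without tau 2) to 0.17 (without tau 1), and the fibroblast one from -0.06 (without PBS 1) to 0.37 (without tau 2).

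**Figure D4:**
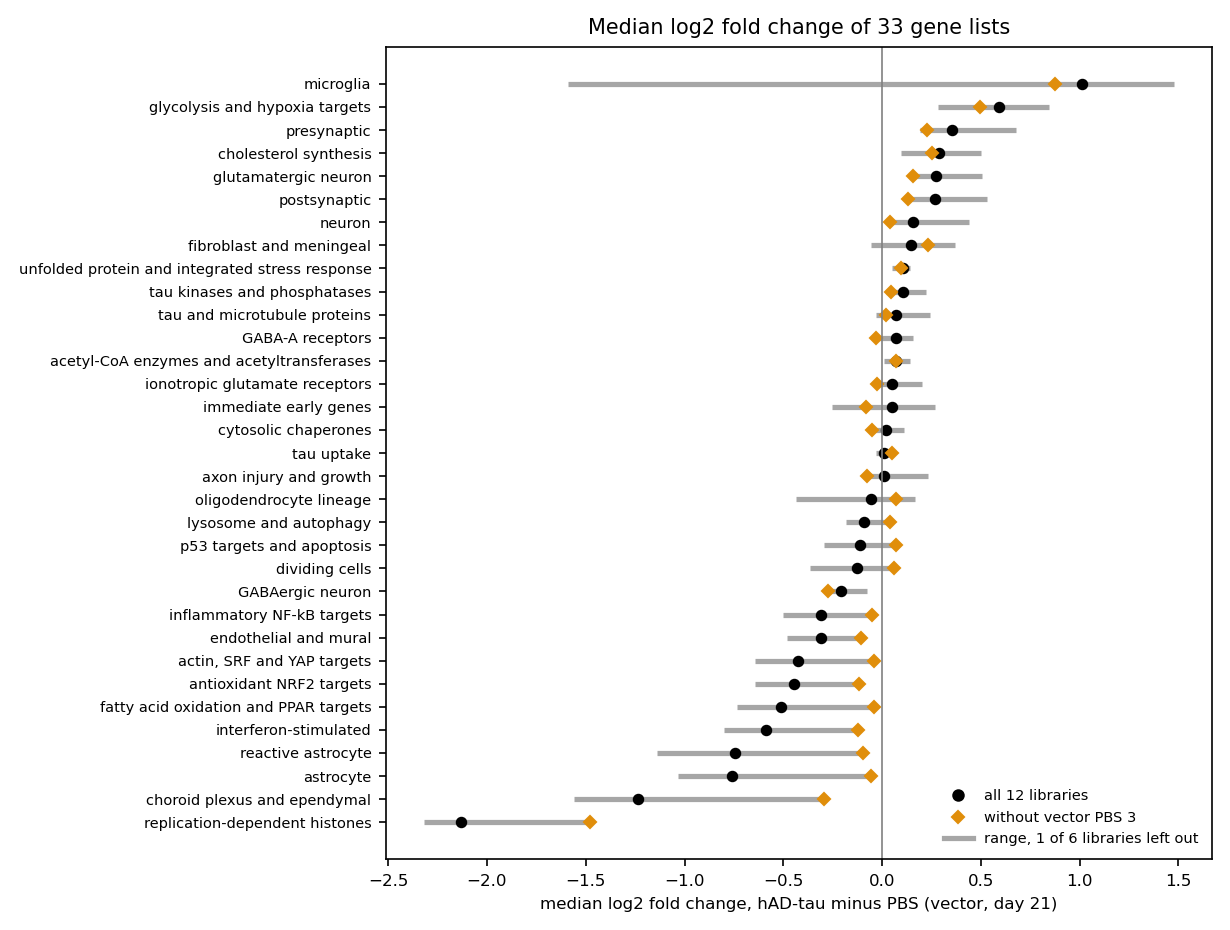
Median log2 fold change of tau minus PBS for each of 33 gene lists in vector neurons of day 21, with the median of the fit with all libraries as a black point, the median without PBS 3 as a diamond, and a bar for the range over fits that leave out 1 of the 6 libraries. The astrocyte median moves from -0.76 to -0.06 without PBS 3, and the histone median from -2.13 to -1.48.

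The same named genes were then read in the other tau comparisons of the cultures, each with its own PBS libraries. In vector neurons of day 21 labelled stimulated, which were deposited in a separate table, 451 of 14939 genes passed in edgeR (3.02%), 188 higher and 263 lower. With the replicate number as a block 1069 passed. The count was 0 when those 2 groups alone entered the fit and 0 without stimulated tau 1, tau 3, PBS 1 or PBS 3, and was 1293 without tau 2 and 1142 without PBS 2. Of the 12 genes named higher, 11 were higher there with non-overlapping groups, and of the 12 named lower, 11 were lower with non-overlapping groups, where 13.6% and 13.1% of all genes were. Across 14579 genes the log2 fold changes of the stimulated and unstimulated comparisons had a Pearson r of 0.759 and a Spearman correlation of 0.693, and genes are not independent replicates. Of 1407 genes with non-overlapping groups in the unstimulated libraries, 1303 (92.6%) had the same sign in the stimulated ones. Whether the stimulated and unstimulated libraries came from the same cultures is not given in the sources used here, and same-numbered libraries deviated together in part (r from -0.0913 to 0.638 across genes), so the likeness is not independent support.

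Several named genes passed in the stimulated neurons. Pdlim1 was at 5.73, 2.27 and 15.6 CPM with tau and at 0.505, 1.03 and 1.24 with PBS, and rose with a log2 fold change of 3.04 (edgeR, adjusted p = 0.0414, and 0.027 with the block). Lrrc8d rose by 0.67 (edgeR, adjusted p = 0.0297), and Hk2 rose from 4.09, 2.41 and 6.92 CPM to 22.4, 11.2 and 44.3 (log2 fold change 2.56; edgeR, adjusted p = 0.0371). Zfr2, Cbln1, Coq8a, Slc7a8 and Cyb561 also rose. Of the lower genes H2bc6, H2bc4 and Lmcd1 fell. H1f2 was at 20.9, 15.4 and 12.2 CPM with tau and at 71.1, 33.7 and 57.6 with PBS, and fell by 1.74 on the log2 scale (edgeR, adjusted p = 0.0289). H1f4 fell by 2.50. The other 2 tested histone genes did not pass, H2bc8 at -1.13 (edgeR, adjusted p = 0.168) and H4c8 at -0.06 ± 0.87 (edgeR, adjusted p = 0.973). Summed histone levels were 35.7, 31.3 and 21.3 CPM with tau and 103, 56.8 and 84.7 with PBS, again without overlap. With the replicate block these calls held, and Fbln2, Neto2, Fam13b and Egln3 passed as well (edgeR, adjusted p = 0.0425, 0.0484, 0.0337 and 0.0396, against 0.0539, 0.0596, 0.051 and 0.0765 without it). Each call without the block passed in 1 or 2 of the 6 fits that left out a stimulated vector library.

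At day 9, 2 days after tau, 600 of 14022 genes passed in edgeR (4.28%), 282 higher and 318 lower. The count was 1 when all 24 unstimulated libraries entered the fit, 1409 without tau 3 of that day, 135 without tau 1, 60 without tau 2 and 68 without PBS 1. Of the genes named higher, 4 were higher at day 9 without overlap (background 10.4%), and of those named lower 3 were lower (10.5%). Kitl was at 26.9, 29.5 and 28.1 CPM with tau and at 35.1, 33.2 and 31.0 with PBS, and fell (edgeR, adjusted p = 0.0393). H2bc4 and Rlbp1 also fell, at adjusted p = 0.0111 and 0.0315 in edgeR, with overlapping groups for Rlbp1. Besides Kitl and H2bc4, the gene lower without overlap was Spa17, which did not pass (edgeR, adjusted p = 0.56). Of the genes named higher, Coq8a and Slc7a8 rose at day 9 (edgeR, adjusted p = 0.0178 and 0.0193). Fbln2 fell there, against its direction at day 21 (edgeR, adjusted p = 0.0387). H1f2 was at 14.9, 12.2 and 12.6 CPM with tau and at 19.8, 19.9 and 17.1 with PBS, and fell by 0.52 on the log2 scale (edgeR, adjusted p = 0.00192). Summed histone levels at day 9 were 31.1, 24.8 and 28.6 CPM with tau and 39.9, 40.5 and 37.1 with PBS, which do not overlap. The glycolysis and hypoxia list lay the other way than at day 21, with 2 of 19 tested genes higher and a median of -0.16. Across 13859 genes the log2 fold changes of day 9 and day 21 had a Pearson r of 0.118. Of 1310 genes with non-overlapping groups at day 21, 816 (62.3%) had the same sign at day 9, against 57% of all genes.

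The test of whether the tau difference itself changed between day 9 and day 21 called 1 of 14863 genes in edgeR (0.00673%). This gene was Fbln2, at 5.01, 5.78 and 5.96 CPM with tau and 7.06, 8.22 and 8.39 with PBS at day 9, and with tau above PBS at day 21. The interaction was 1.49 ± 0.23 on the log2 scale (edgeR, adjusted p = 0.0383). No gene passed when all genes entered without a filter, with the replicate block, or when any 1 library was left out, except that 1 gene passed without day 21 tau 2 and 3 passed without day 21 tau 3. At an unadjusted p of 0.05 edgeR listed 1261 genes (8.48%), and DESeq2 called 2.

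In neurons with the upACSS2 virus on day 21, 0 of 14639 genes (0%) passed in edgeR, 931 had an unadjusted p under 0.05 (6.36%), and DESeq2 called 11. The sign was that of vector neurons for 9 of the 12 genes named higher, 2 of them without overlap (background 8.7%), and for 5 of the 12 named lower, 0 of them without overlap (background 8.72%). Across 14639 genes the log2 fold changes had a Pearson r of -0.0821 with those of vector neurons. Of 1417 genes with non-overlapping groups in vector neurons, 652 (46%) had the same sign here, against 54.1% of all genes. Summed histone levels were 72.3, 61.7 and 99.95 CPM with tau and 83.2, 60.5 and 84.1 with PBS and overlapped. H1f2 was at 33.8, 25.4 and 63.0 CPM with tau and at 35.5, 25.4 and 31.3 with PBS. Pdlim1 was at 4.13, 4.29 and 2.28 CPM with tau and at 0.769, 1.22 and 1.79 with PBS, which do not overlap. All 20 glycolysis and hypoxia genes were again above 0, with a median of 0.67, and Egln3 was at 22.5, 21.7 and 14.96 CPM against 7.35, 6.55 and 15.4. The test of the difference between the viruses called 0 of 14639 genes (0%) in edgeR, with 1215 at an unadjusted p under 0.05 (8.3%), and DESeq2 called 3. Values in the 2 viruses are therefore given side by side and are not shown to differ for any gene by that edgeR test.

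Cultures without virus, 4 with tau and 3 with PBS on day 21, were deposited in a further table. No day of tau or PBS addition is recorded for them here, so their exposure may differ from 14 days. Total counts were 6215868 in their PBS 1 and 22877690 to 32507765 in their other libraries. There 0 of 16341 genes passed in edgeR (0%), 2272 had an unadjusted p under 0.05 (13.9%), and DESeq2 called 308. The sign was that of vector neurons for 3 of the 12 genes named higher and for 5 of the 12 named lower, 1 of each without overlap (backgrounds 6.91% and 9.8%). Kitl was at 9.19, 10.7, 10.5 and 6.62 CPM with tau and at 17.7, 13.2 and 26.2 with PBS, again without overlap and lower with tau. Histone sums were 71.2, 67.3, 165 and 98.6 CPM with tau and 74.6, 112 and 52.0 with PBS, which overlap. Of 20 glycolysis and hypoxia genes 19 were above 0, with a median of 0.72. Across 13991 genes the log2 fold changes had a Pearson r of -0.312 with those of the vector neurons.

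**Figure D5:**
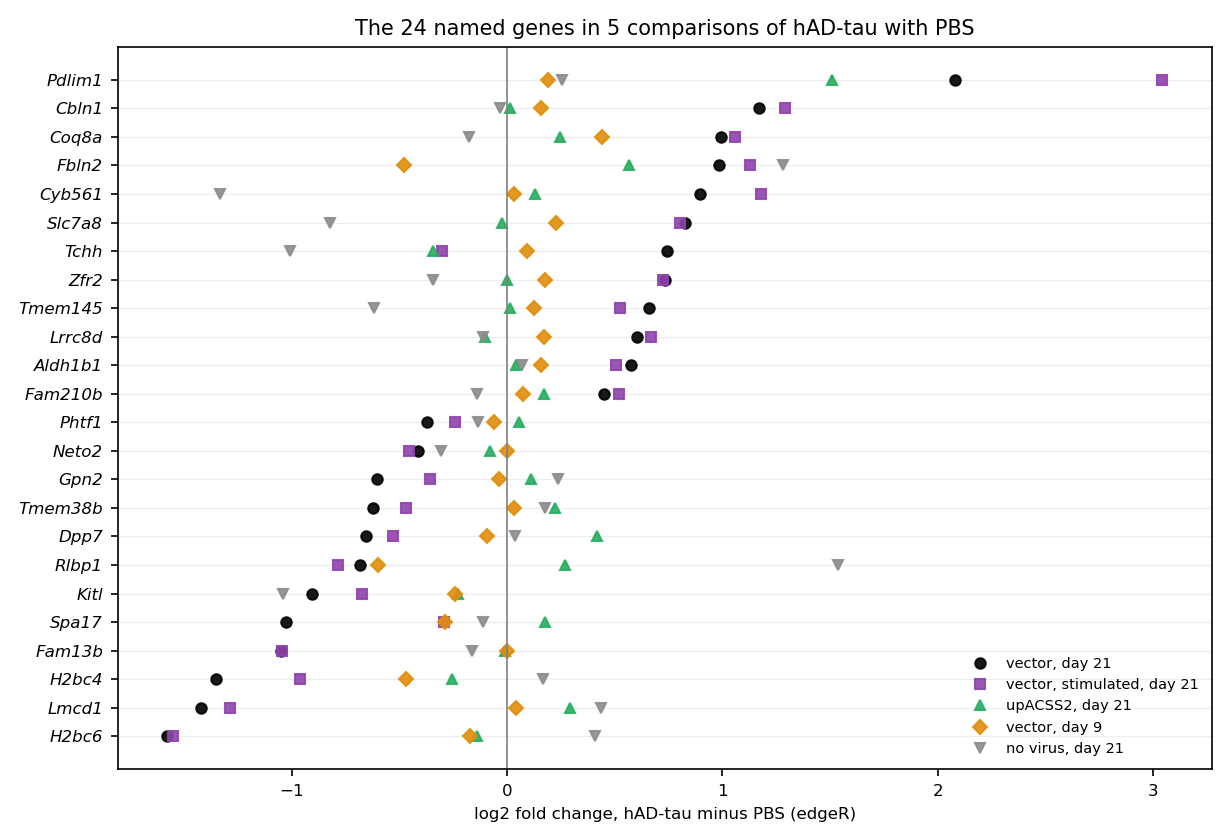
Log2 fold change of tau minus PBS, from edgeR, of the 24 named genes in 5 comparisons, 1 marker per comparison. The vector and stimulated vector markers lie on the same side of 0 for 23 of the 24 genes, with Tchh the exception, and those of the upACSS2 and no-virus cultures lie on both sides.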

How the data were processed

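RNA was sequenced from cultured neurons, and the authors deposited their gene-level read counts, which were not normalized. Alignment and counting tools named in the submitters' processing notes are STAR, featureCounts and HTSeq, with the mouse build mm10 and DESeq2, without versions or roles. Strand setting and annotation are not given in the sources used here. Groups were taken from sample titles. The members and gene lists were chosen with earlier results of these data known.

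Counts were tested with edgeR 4.0.16 (R 4.3.3): TMM scaling, the default filter on low counts by group, the quasi-likelihood F test, and Benjamini-Hochberg adjustment at 0.05, two-sided, over all genes tested. The 12 unstimulated libraries of day 21 entered the fit of the vector comparison, and each other table or pair of days had its own fit, 7 comparisons in all. With 3 libraries against 3 the smallest exact two-sided permutation p is 0.1, so single values were not tested that way. CPM were computed here from the TMM-scaled library size. Log2 CPM used a prior count of 2. Fold changes of rare genes depend on few counts. CPM at a count of 0 are given with the level 3 counts would give, for counting error only. Between 6.13% and 8.74% of the counts of the no-virus libraries were in an unnamed row, which was left out.

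The named genes were the 12 with the lowest p in each direction among those with non-overlapping groups and a mean log2 CPM of at least 1, with Acss2 and Mapt added. Gene lists are described by counts and medians with no test of their own. Other settings were DESeq2 1.42.0, RLE scaling, no filter, the replicate number as a block, the 2 groups alone, all 24 unstimulated libraries, each library left out in turn, and, chosen after seeing the data, fits without the Rn45s gene or the 2 libraries rich in it. The same replicate numbers occur in both groups. Deviations of same-numbered libraries correlated at 0.556, 0.232 and -0.0128 in the vector comparison, so the numbers were not taken as pairs. The correlations were 0.134, 0.326 and 0.123 in the stimulated comparison and 0.235, 0.22 and 0.394 in the no-virus comparison. Main fits of these 2 comparisons also left the replicate number out, and fits with it as a block are given beside them. No 2 libraries of a group agreed within sampling noise (chi-square per gene 12.9 to 315 among the 6). The scripts were tested on simulated data.

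Positions, overlaps and promoter windows come from RefSeq (GRCm38.p6, the assembly of mm10), matched by symbol for all 26 named genes and all 14 listed histone genes. No genome sequence was used beyond the windows. H2bc4 is named without a promoter.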

Additional observations from a re-analysis of the deposited data

Results flagged for a closer look

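Fbln2, the matrix glycoprotein, differed in its tau difference between day 9 and day 21 of vector neurons by a test of the interaction (1.49 on the log2 scale; edgeR, adjusted p = 0.0383, n = 3 per group). It was lower with tau at day 9 and higher at day 21 in all 3 libraries of each group.

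Cyb561 had a log2 fold change of -1.33 in the cultures without virus against 0.90 in vector neurons, with non-overlapping groups in opposite directions. Rlbp1 had 1.54 in the cultures without virus against -0.69 in vector neurons, also without overlap. The difference between the 2 kinds of culture was not tested for either gene, since they lie in separately deposited tables.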

How the results depend on the processing

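For tau against PBS in vector neurons of day 21, the count of 0 called genes became 3 with DESeq2 and 29 with all 24 unstimulated libraries, and was 0 under each other setting run, the replicate block (1376 genes at an unadjusted p under 0.05) and all leave-one-out fits included. The test between viruses gave 3 with DESeq2. The test between days gave 2 with DESeq2, 0 without the filter on low counts, 0 with the replicate block and 0 to 3 with 1 library left out. In upACSS2 neurons DESeq2 called 11, the fit of 24 libraries 8, and leaving out 1 library 0 to 1. At day 9 the 600 called genes became 1153 without the filter, 257 in the 2 groups alone, 1 with 24 libraries and 60 to 1409 with 1 library left out. The 451 of the stimulated comparison became 1525 with DESeq2, 1069 with the replicate block, 0 in the 2 groups alone and 0 to 1293 with 1 library left out. Without virus, 0 became 308 with DESeq2, 1 with RLE scaling and 1 without the filter. The cause was not tested. At day 9 the block gave 552 called genes. In the stimulated comparison the block added calls for Fbln2, Neto2, Fam13b and Egln3, and without virus and in upACSS2 neurons the count stayed 0.

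Of the log2 fold changes of genes named here or used as list examples, 1186 refits kept direction and side of the threshold, 20 came under the threshold and 11 reversed. Refits that gave no adjusted p were counted as kept. None of these genes passed in the main fit, and 24 were chosen for non-overlapping groups. The tally was therefore largely fixed in advance and is no measure of robustness. Kl (-0.009) reversed to 0.009 with 24 libraries and 0.066 without the 2 libraries rich in Rn45s, and ran from -0.433 to 0.433 with 1 library left out (0.083 without tau 1, 0.239 without tau 2). Sox10 (0.256) was -0.083 without those 2 and -0.21 to 0.46 with 1 left out. Acss2 (0.07) ran from -0.002 to 0.178, Dcn (-0.057) from -0.211 to 0.036 (0.034 without PBS 3) and Foxj1 (-1.271) from -1.741 to 0.555 with 1 left out. The median of all genes stayed between -0.02 and 0.01. Genes under the filter on low counts, such as 8 of the 14 histone genes, were left out of the main test. Without the filter all 14 entered, with 0 above 0 and a median of -2.60, to which the added genes brought few counts.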
